A study of Mus musculus with 2 samples.

Results

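The 10 genes described here were Acp5, which encodes tartrate-resistant acid phosphatase (TRAP), and 9 cathepsin genes, Ctsk, Ctsa, Ctsb, Ctsc, Ctsd, Ctsh, Ctsl, Ctss and Ctsz. All positions below are of build GRCm38. The genes were taken by name, and they are 10 of the 14870 genes to which at least 1 transcribed locus could be given. The study cultured wild-type (WT) mouse bone marrow cells in macrophage colony-stimulating factor (M-CSF) at 20 ng/mL. The M library came from M-CSF alone. The MR library came from M-CSF and, after 2 days, M-CSF together with 100 ng/mL of receptor activator of NF-κB ligand (RANKL), for a second step of 2 days by the sample labels and 3 days by the study's methods. Neither condition carried an altered allele, and both held the mixed, unsorted cells of marrow that M-CSF had maintained, so that no purified osteoclast sample was compared. The strain, age and number of mice behind each library, and the harvest day of the RNA, were not given for these samples in the sources used here.

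Osteoclasts are multinucleated cells of the monocyte lineage that dissolve bone. They seal off a compartment against the bone surface, acidify it with a proton pump and secrete enzymes into it, so that mineral dissolves and the exposed collagen is digested at low pH. Cathepsin K is the cysteine protease that cleaves type I collagen in this compartment, and its loss in humans causes the dense but fragile bones of pycnodysostosis. TRAP is a metal-containing phosphatase whose staining is the usual mark of an osteoclast. The other cathepsins are proteases of lysosomes, which macrophages use to degrade proteins that they have taken up.

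Only 1 library was sequenced per condition. No SD and no test of the conditions was possible, and each difference below is one between these 2 libraries, with no replicate check. Levels are TPM (transcripts among 1000000, a length-corrected share of the library), and each change is a log2 ratio of MR to M after 1 was added to both TPM values. The aligned bases, estimated from the ratio of coverage to FPKM (fragments per kilobase and 1000000 mapped fragments), were 3.63 Gb in M and 2.98 Gb in MR. The read pairs of a gene were estimated from its FPKM, its shortest coding transcript and these totals at 300 bases per pair. These counts are low estimates where longer transcripts were read, and the intervals are then wider than the reads would give. Where the locus covered fewer exon bases than that transcript, the counts can be too high and the intervals too narrow. For Ctsb the transcript had 4743 bases, and the locus covered 3253 exon bases in M and 3240 in MR. Intervals given with a ratio are 95% Wilson intervals on the estimated read pairs of both libraries, without the added 1, and cover counting error only.

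Marker genes of cell types were read in both libraries, whose labels name a treatment and no cell state. The marker lists were chosen with earlier results of these data known. All 7 osteoclast markers were above a log2 ratio of 1, their summed level was 21.2 TPM in M and 7178 TPM in MR, and 4 of them (Calcr, Oscar, Dcstamp and Ocstamp) had no locus in M. The 5 monocyte and macrophage markers summed to 20191 TPM in M and 7861 TPM in MR, and the median of their log2 ratios was -0.34. Most of that sum was Lyz2, at 16035 and 4535 TPM, whose locus also covered Lyz1. Adgre1 was at 681 and 148 TPM, while Csf1r was at 697 and 872 TPM, Cd68 at 2607 and 2171 TPM and Itgam, in a locus shared with Gm49368, at 171 and 135 TPM. The 6 neutrophil markers summed to 927 and 590 TPM, and the 6 dendritic markers to 185.5 and 180.2 TPM. The 3 B cell markers summed to 7.46 and 7.04 TPM and the 4 stromal markers to 15.2 and 18.3 TPM, with Bglap at no locus. Of 4 T and NK cell markers, Cd3e, Cd3g and Gzmb had no locus in either library, and Nkg7 had 1.77 TPM in M and no locus in MR. The part of such changes in cell makeup in the differences below was not tested. In bulk RNA, fewer cells of a type and less RNA per cell cannot be told apart.

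All 10 genes had a single locus in each library and passed the minimum of 1 TPM. Acp5 and Ctsk were above a log2 ratio of 1, against 21.3% of the 13449 genes compared. Ctsb, Ctsc, Ctsd, Ctsh, Ctsl and Ctss were below a log2 ratio of -1, against 13.2% of those genes. Ctsa and Ctsz lay between these limits, and both were lower in MR. The median log2 ratio of the 10 genes was -1.47, and that of all genes compared was 0.21.

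**Figure D1:**
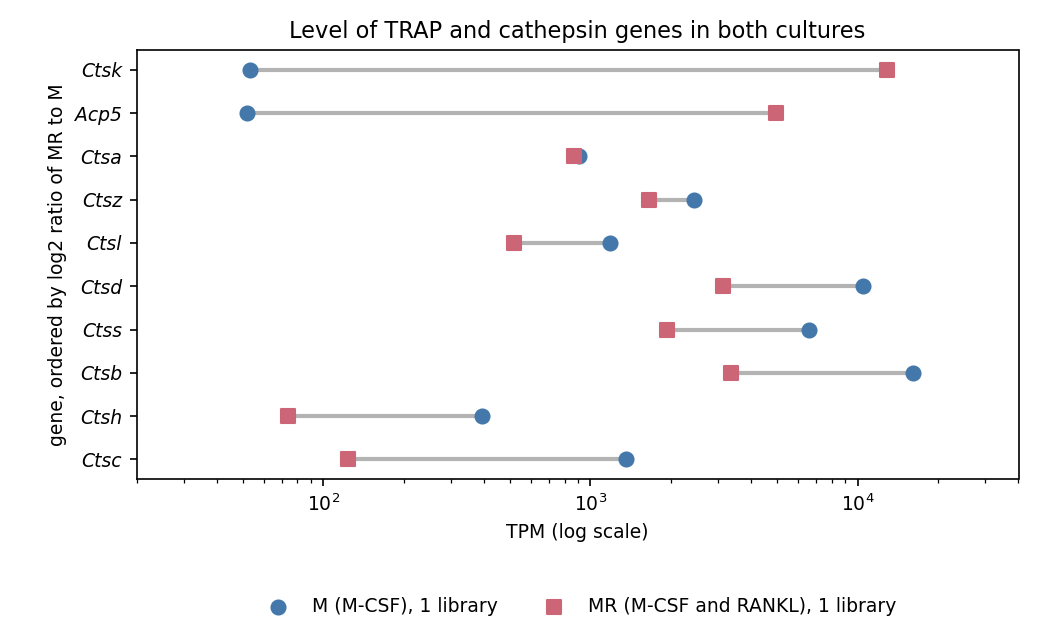
TPM on a log axis of Acp5 and the 9 cathepsin genes in the M library (M-CSF) and the MR library (M-CSF and RANKL), with 1 point per gene and library joined by a line and no error bars, since each condition had 1 library. Ctsk and Acp5 start near 50 TPM in M and end at 12867 and 4947 TPM in MR, while the other 8 genes are lower in MR, by 1.04-fold for Ctsa to 11.0-fold for Ctsc.

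Ctsk and Acp5 had almost the same level in M and were both among the most abundant genes of MR. Ctsk (ENSMUSG00000028111.4, GRCm38 chr3:95499256-95509362, plus strand) was at 53.1 TPM in M and 12867 TPM in MR, a 242-fold higher level and a log2 ratio of 7.90 (interval 7.79 to 8.06, from about 449 and 85891 read pairs). Its rank among all genes was 2676 in M and 2 in MR. Acp5 (ENSMUSG00000001348.15, GRCm38 chr9:22126727-22135711, minus strand) was at 51.9 TPM in M and 4947 TPM in MR, which was 95.3-fold higher, with a log2 ratio of 6.55 (interval 6.43 to 6.72, from about 392 and 29462 read pairs). Its rank was 2735 in M and 11 in MR. Of the genes compared, 99.9% had a lower ratio than Ctsk and 99.8% had a lower ratio than Acp5. Both genes were thus read in M, whereas 4 of the osteoclast markers had no locus in that library. The level of Ctsk over that of Acp5 was 1.02 in M and 2.60 in MR.

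**Figure D2:**
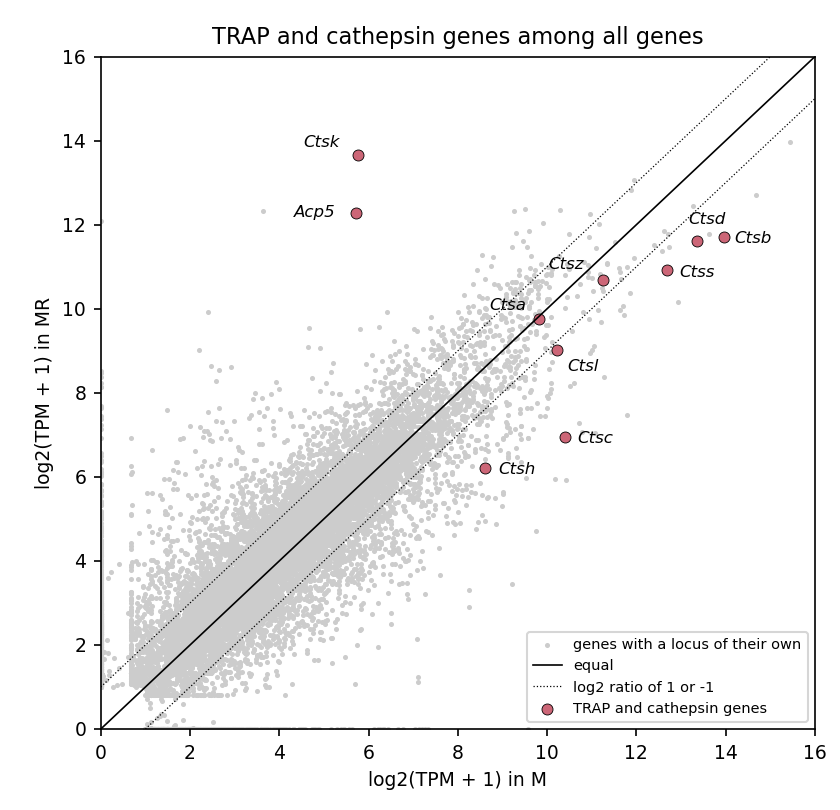
Level of every gene with a locus of its own in M (x axis) and MR (y axis), both as log2(TPM + 1), in grey, with the TRAP and cathepsin genes in red, a solid line of equal level and dotted lines at log2 ratios of 1 and -1. Ctsk and Acp5 stand far above the upper dotted line, 6 cathepsins lie below the lower one, and Ctsa and Ctsz lie between them.

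Promoters are shown for both genes that were higher in MR, for Ctsc, which was lower by the most, and for Ctss, the neighbour of Ctsk, with the short motifs of factors known from osteoclasts and macrophages. The windows are RefSeq's, of build GRCm38.p6, and run from 180 bases before a transcript start to 20 bases after it. Capitals mark the motif matches on either strand that lie in the window. The letters searched were GAGGAA for the core of PU.1, a factor of myeloid cells, GGAAA for the core of NFAT, TCATGTG for the M-box bound by MITF and TFE factors, CACGTG for the E-box, TGANTCA for AP-1, TATAAA for a TATA box and GAAANNGAA for the core of an interferon response element. The PU.1 and NFAT cores share the letters GGAA, so that their matches can overlap. The first Acp5 window belongs to the RefSeq start nearest to the 5′ end of the locus in MR and lies at chr9:22131846-22132045 on the minus strand, the second to a start inside the gene, at chr9:22130579-22130778. The MR locus began 329 bases upstream of the first of these starts, so that both Acp5 windows lay inside it. The outermost RefSeq start of Acp5, at 22135746, lay beyond the loci of both libraries, and its window is not shown. The Ctsk window lies at chr3:95499030-95499229, the Ctsc window at chr7:88277905-88278104 and the Ctss window at chr3:95526606-95526805, all on the plus strand.
Acp5, first start: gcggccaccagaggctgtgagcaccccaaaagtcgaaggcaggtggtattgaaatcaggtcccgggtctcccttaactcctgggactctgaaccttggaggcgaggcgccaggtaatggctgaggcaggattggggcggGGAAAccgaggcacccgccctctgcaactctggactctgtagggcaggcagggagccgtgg
Acp5, inner start: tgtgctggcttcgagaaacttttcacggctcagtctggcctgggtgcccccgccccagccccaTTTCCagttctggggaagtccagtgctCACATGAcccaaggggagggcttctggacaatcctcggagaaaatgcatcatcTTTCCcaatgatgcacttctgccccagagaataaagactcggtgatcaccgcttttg
Ctsk: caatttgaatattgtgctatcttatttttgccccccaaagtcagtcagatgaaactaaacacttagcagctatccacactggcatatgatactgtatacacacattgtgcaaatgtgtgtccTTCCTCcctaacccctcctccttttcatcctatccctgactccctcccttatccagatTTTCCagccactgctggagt
Ctsc: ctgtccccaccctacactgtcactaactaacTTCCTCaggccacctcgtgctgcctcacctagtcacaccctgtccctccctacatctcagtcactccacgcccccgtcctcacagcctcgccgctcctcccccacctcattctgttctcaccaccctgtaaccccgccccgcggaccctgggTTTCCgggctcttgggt
Ctss: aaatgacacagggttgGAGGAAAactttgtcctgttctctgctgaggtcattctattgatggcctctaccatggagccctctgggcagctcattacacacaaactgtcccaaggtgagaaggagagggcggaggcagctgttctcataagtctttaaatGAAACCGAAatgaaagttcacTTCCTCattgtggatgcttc

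Positions are counted from 1 at the transcript start, with negative numbers before it and no 0. In Ctsk the PU.1 core lay at -58 to -53 on the opposite strand, and the NFAT core lay at 1 to 5. In Acp5 the first window held 1 NFAT core, at -41 to -37, and the inner window held an M-box at -90 to -84 and NFAT cores at -117 to -113 and -37 to -33. The window of the outermost Acp5 start held an NFAT core at -167 to -163 and an interferon response core at -166 to -158. In Ctsc a PU.1 core lay at -149 to -144 and an NFAT core at 4 to 8. In Ctss an interferon response core lay at -21 to -13 and PU.1 cores lay at -164 to -159 and 1 to 6. An NFAT core of Ctss, at -162 to -158, overlapped the PU.1 core at -164 to -159. The full RefSeq windows hold 300 bases, 250 before the start and 50 from it on, and 8 of the 10 genes had such a window, with none for Ctsb and Ctsh. Taking the start nearest to the locus in MR, 6 of the 8 held an NFAT core, which 61.3% of all 32851 mouse windows also held. The M-box (3.77% of all windows), the TATA box (13.6%) and the interferon response core (8.56%) were each in 1 window, that of Ctss. The TATA letters of Ctss lay at -233 to -228 on the opposite strand and its M-box at 19 to 25. Neither lies wholly within the bases printed above. The PU.1 core was in 3 windows, those of Ctsc, Ctsk and Ctss (28.3% of all windows), and the E-box in those of Ctsd and Ctsl (7.15%). A second Ctsa start, at 164833773, held E-boxes, an M-box and an NFAT core. The AP-1 letters were in 0 of the 8 windows and in 7.81% of all windows. The PU.1 and NFAT letters stood in windows of genes with higher and with lower levels in MR. A match of letters is a description of the window and not a binding site.

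The assembled 5′ ends of Acp5 and Ctsk differed more between the libraries than those of the other genes. The Acp5 locus began at position 22132028 in M and 22132194 in MR, 166 bases apart, and covered 79.4% of the gene's exon bases in each library. Both ends lay upstream of the annotated GENCODE starts at 22131815, 22131831 and 22131653 and of the inner start at 22130598. The M end fell 3683 bases and the MR end 3517 bases short of the farthest annotated start, at 22135711. The Ctsk locus began at 95498954 in M and 95499212 in MR, 258 bases apart, and its M end lay 302 bases upstream of the annotated start at 95499256. The listed coverage of Ctsk in M was 59.7% of the coverage that its FPKM implied, against 100% in MR. This share was lower still, and alike in both libraries, for Ctsc (42% in M and 40.8% in MR) and Ctss (46.6% and 46.9%). For the 8 genes other than Acp5 and Ctsk, the 5′ ends of the libraries were 2 (Ctsc) to 93 bases (Ctsd) apart. Their 3′ ends were 0 to 8 bases apart.

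Besides Ctsk, 4 of the 10 genes encode lysosomal endopeptidases, which cut within protein chains, and these 4 were lower in MR. Ctsb (ENSMUSG00000021939.8, chr14:63122462-63145923, plus strand) encodes a cysteine protease that can also remove dipeptides from the carboxyl end. It was at 16083 TPM in M, where it ranked 3 of all genes, and at 3369 TPM in MR, where it ranked 24. The log2 ratio was -2.25 (interval -2.27 to -2.24), a 4.77-fold lower level. Ctsd (ENSMUSG00000007891.16, chr7:142375911-142388038, minus strand), the aspartic protease of lysosomes, was at 10514.5 TPM in M and 3130.2 TPM in MR, 3.36-fold lower, with a log2 ratio of -1.75 (interval -1.77 to -1.73). Its locus also covered the gene model Gm49369, so that its reads could not be separated from that model's.

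Ctss (ENSMUSG00000038642.10, chr3:95526786-95556403, plus strand) encodes the protease that trims the invariant chain of MHC class II molecules in antigen-presenting cells. It was at 6604 TPM in M and 1931 TPM in MR, 3.42-fold lower, with a log2 ratio of -1.77 (interval -1.80 to -1.75). Ctss is the neighbour of Ctsk, 17423 bases beyond its end on the same strand, and the pair changed places: Ctss was 124 times the level of Ctsk in M, and Ctsk was 6.66 times the level of Ctss in MR. Ctsl (ENSMUSG00000021477.9, chr13:64359337-64370890, minus strand), a broadly expressed endopeptidase close in sequence to cathepsin K, was at 1188 TPM in M and 516 TPM in MR. This was 2.30-fold lower, a log2 ratio of -1.20 (interval -1.29 to -1.11), the smallest difference among these 4 genes.

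The exopeptidases, which remove residues from the ends of proteins, ranged from the largest lower level of the family to a log2 ratio near 0 in TPM. Ctsc (ENSMUSG00000030560.17, chr7:88278085-88310888, plus strand) encodes dipeptidyl peptidase 1, which activates the serine proteases stored in the granules of leukocytes. It was at 1356 TPM in M and 123 TPM in MR, 11.0-fold lower, with a log2 ratio of -3.45 (interval -3.59 to -3.32), and only 0.7% of the genes compared had a lower ratio. The rank of Ctsc was 70 in M and 1305 in MR. Ctsh (ENSMUSG00000032359.14, chr9:90054152-90076089, plus strand), which encodes an aminopeptidase, was at 392.5 TPM in M and 73.5 TPM in MR, 5.34-fold lower. Its log2 ratio was -2.40 (interval -2.69 to -2.14), from about 813 and 120 read pairs at a shortest coding transcript of 370 bases, although its locus covered 4448 exon bases in M and 4457 in MR.

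Ctsz and Ctsa differed less. Ctsz (ENSMUSG00000016256.10, chr2:174427493-174439039, minus strand), a cysteine carboxypeptidase also called cathepsin X, was at 2433 TPM in M and 1656 TPM in MR, 1.47-fold lower, with a log2 ratio of -0.55 (interval -0.59 to -0.52). Ctsa (ENSMUSG00000017760.16, chr2:164832873-164841032, plus strand) is a serine carboxypeptidase and holds β-galactosidase and neuraminidase in a stable complex. It was at 904 TPM in M and 870.5 TPM in MR, a log2 ratio of -0.055. Its interval in TPM, -0.15 to 0.04, included 0, but its log2 ratio was -0.11 by FPKM, -0.25 by median-of-ratios scaling and -0.50 by coverage per aligned Gb. The listed coverage of Ctsa was 99.3% of that implied by its FPKM in M and 76% in MR. The size of the difference in Ctsa thus depended on the unit.

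**Figure D3:**
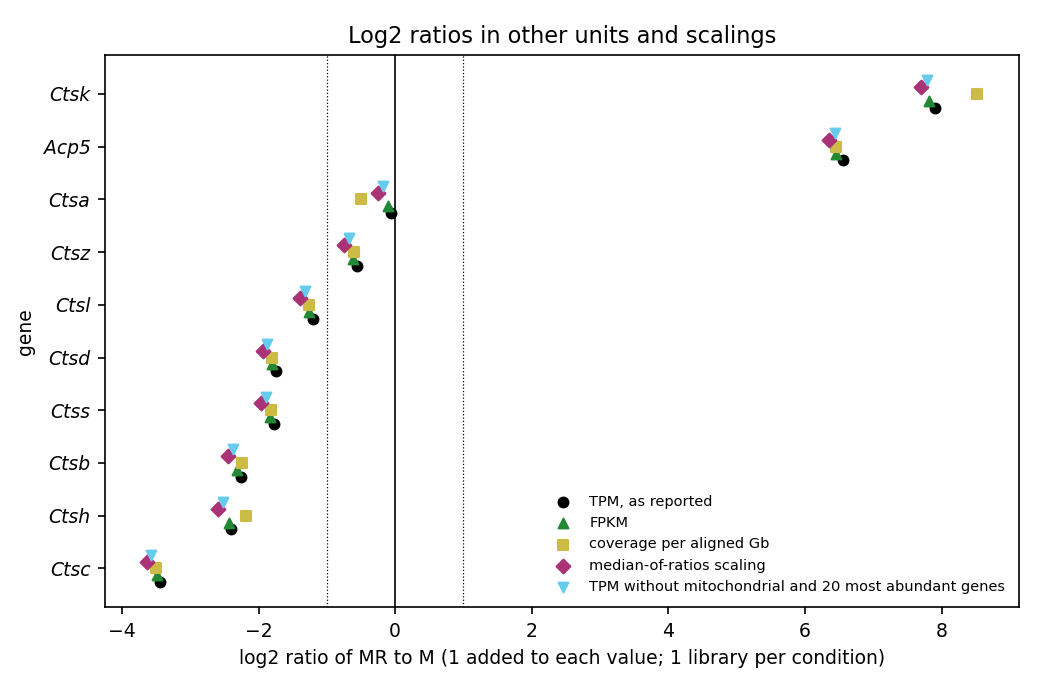
Log2 ratio of MR to M for each gene computed from TPM, FPKM, coverage per aligned Gb, median-of-ratios scaling, and TPM rescaled after mitochondrial genes and the 20 highest genes were dropped, with 1 marker each and dotted lines at 1 and -1. Acp5 and Ctsk are above 0 and the other 8 genes below 0 in each of these, and Ctsk (7.70 to 8.51) and Ctsa (-0.50 to -0.055) spread the most.

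The sum over the 9 cathepsins was 39529 TPM in M (3.95% of the library) and 24538 TPM in MR (2.45%), which was 1.61-fold lower. The largest share of it was that of Ctsb in M and that of Ctsk in MR. Without Acp5 and Ctsk, the other 8 genes summed to 39475.5 TPM in M and 11670.2 TPM in MR, 3.38-fold lower. Of the summed cathepsin level, Ctsk was 0.134% in M and 52.4% in MR. Ctsb was 40.7% in M and 13.7% in MR, Ctsd 26.6% and 12.8%, and Ctss 16.7% and 7.87%. Ctsc went from 3.43% to 0.503%, while Ctsz, at 6.15% and 6.75%, and Ctsa, at 2.29% and 3.55%, held larger shares in MR at lower TPM. Ctsb was 303 times the level of Ctsk in M, and Ctsk was 3.82 times the level of Ctsb in MR. The ratio of Ctsb to Ctsd was 1.53 in M and 1.08 in MR.

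**Figure D4:**
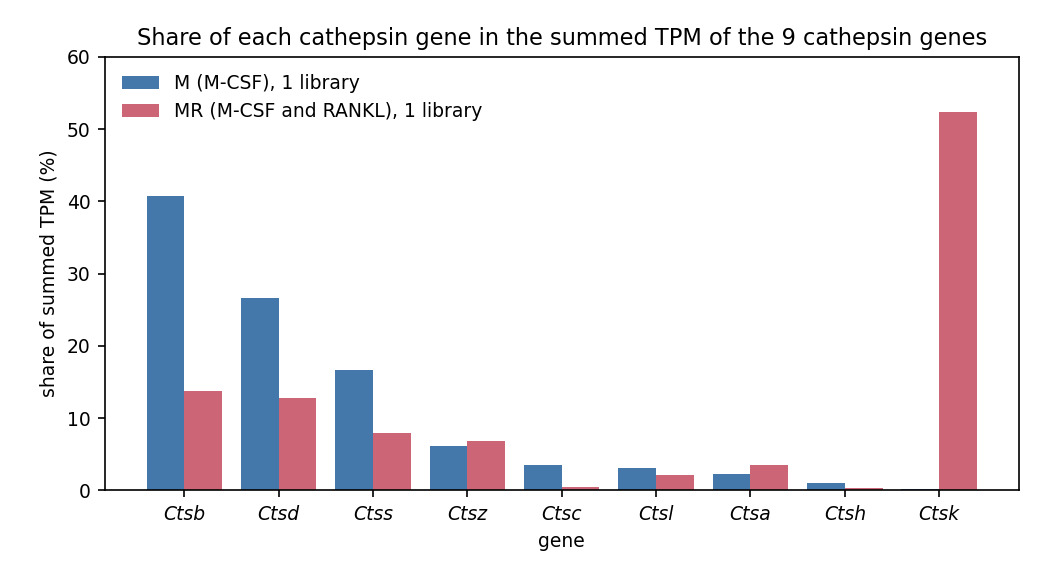
Share of the summed TPM of the 9 cathepsin genes held by each of them, in percent. Each gene has a bar for the M library beside a bar for the MR library. In M, Ctsb, Ctsd and Ctss hold 40.7%, 26.6% and 16.7%, and in MR Ctsk holds 52.4%.

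The other genes of these families and their partners were taken from lists by function. Of 13 further cathepsin genes, 9 had no locus in either library, among them the placental cathepsins Ctsj, Ctsm, Ctsq and Ctsr. The 4 that were read summed to 88.4 TPM in M and 66.2 TPM in MR. Of these 4, only Ctsf, at 4.51 and 13.3 TPM, was above a log2 ratio of 1, against 21.3% of all genes compared. Ctso was at 63.0 and 38.8 TPM, and Ctsg, a serine protease of neutrophil granules, was at 12.5 and 8.25 TPM. Of 6 further acid phosphatases, 4 were read and none of them was above a log2 ratio of 1. Acp2, the lysosomal acid phosphatase, was at 208 TPM in M and 91.7 TPM in MR, a log2 ratio of -1.17, and Acp1, a cytosolic phosphatase, at 52.8 and 54.3 TPM.

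Cystatins are the inhibitors of the cysteine cathepsins. Of 14 cystatin genes, 5 reached 1 TPM. Of these 5, 1 was above a log2 ratio of 1 and 1 below -1, against 21.3% and 13.2% of all genes compared. Their median log2 ratio was 0.10 with TPM and -0.087 with median-of-ratios scaling. The most abundant were Cstb, a cytosolic inhibitor, at 1942 and 1885 TPM, and Cst3, which encodes the secreted cystatin C, at 1445 TPM in M and 1965 TPM in MR. Cst6 had no locus in M and 3.71 TPM in MR, and Stfa3 had 1.19 TPM in M and no locus in MR. The 7 cysteine cathepsins summed to 28110 TPM in M and 20537 TPM in MR, while the cystatins summed to 3405 and 3872 TPM.

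Of 10 genes for the sorting and maturation of lysosomal enzymes, 8 had a value, and 2 (Glb1 and Sort1) lay inside loci given to other genes and had none. Their median log2 ratio was -0.24, with 2 above 1 and 2 below -1, against 21.3% and 13.2% of all genes compared. Gnptab, which encodes subunits of the enzyme that makes the mannose 6-phosphate sorting tag, was at 35.2 TPM in M and 252.5 TPM in MR, 7.16-fold higher. Both receptors of that tag were higher, Igf2r at 45.6 and 109 TPM and M6pr at 360 and 590 TPM. Lgmn, the asparaginyl endopeptidase that processes several cathepsins, was at 2494 TPM in M and 330 TPM in MR, 7.56-fold lower. Psap, the precursor of the saposins, was at 12729 and 3492 TPM, a log2 ratio of -1.87. The genes of this pathway lay on both sides of 0, with 3 higher and 5 lower in MR. Of the 9 cathepsins, only Ctsk was higher.

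**Figure D5:**
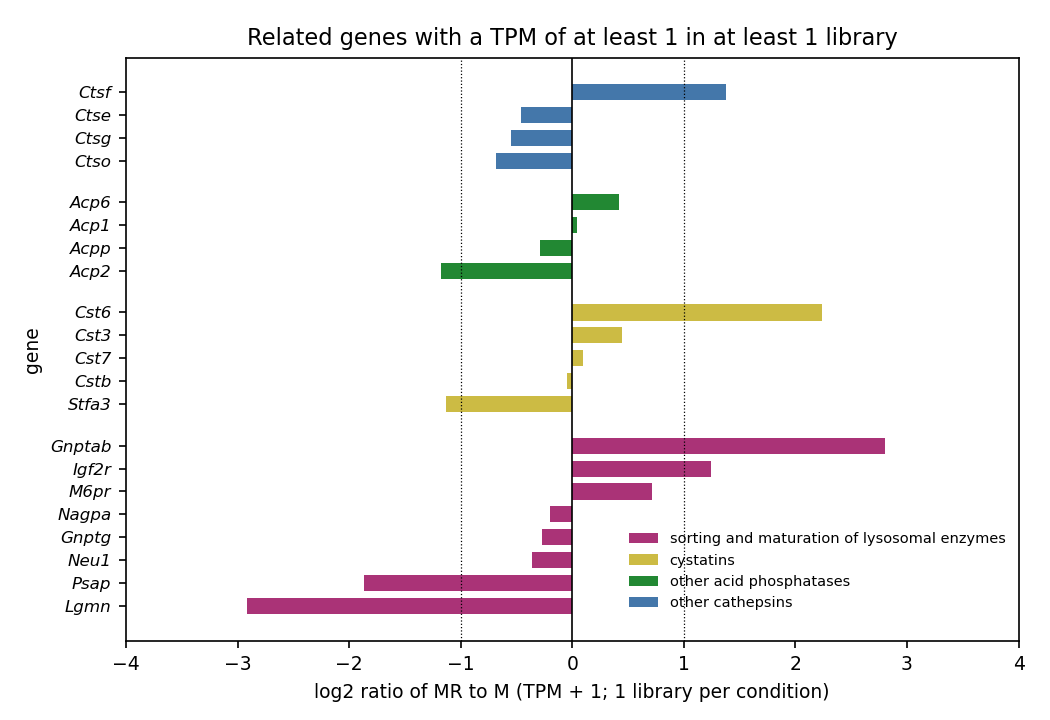
Log2 ratio of MR to M, from TPM + 1 with 1 library per condition, for each related gene with at least 1 TPM in at least 1 library, coloured by list, with dotted lines at 1 and -1. Gnptab has the highest ratio, 2.81, and Lgmn the lowest, -2.92, and the values of Cst6 and Stfa3 rest on a library with no locus and depend on the added 1.

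The genes whose levels in the 2 libraries lay nearest to those of Acp5 and Ctsk were found by the distance between log2(TPM + 1) values, over 2 libraries. Only the genes compared that had a locus of their own were searched, and clone and model names were left out. For Acp5 the nearest gene was Ctsk, at a distance of 1.38, and the next was Mmp9, at 2.10. For Ctsk the nearest was Acp5 and the next was Mmp9, at 2.50. Mmp9, which encodes a matrix metalloproteinase made by osteoclasts, was at 11.4 TPM in M and 5159 TPM in MR. The next after these were the mitochondrial genes mt-Nd3 for Acp5, at 2.44, and mt-Nd2 for Ctsk, at 3.65.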

How the data were processed

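Total RNA of 2 cultures was sequenced by the authors on a NovaSeq with paired 150-base reads. Per the labels, Trim Galore, FastQC, SAMtools and StringTie were used, versions not given. The methods name HISAT2, mm10 and a GENCODE annotation of build GRCm39. The authors deposited a StringTie gene table per library, with coverage, a signal per base, FPKM, and TPM. The deposited TPM sums to 1000000 over assembled loci (19422 in M, 19922 in MR), and named rows bring the whole column above that sum. Named rows hold GRCm39 positions over mm10 reads and were not used.

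Each assembled locus was given to the GENCODE vM21 gene with most exon bases on its strand (at least 50), and TPM was summed per gene. These genes held 95.4% of the TPM in M and 96.9% in MR. A locus was called shared when it also took in 50% or more of a second coding gene's exons. A gene was compared at 1 TPM or more in 1 library. The log2 limits were 1 and -1. The assignment was run on simulated loci, each placed close to the annotated ends of a coding gene on its strand. Loci in pieces, without a strand or merged over genes were not simulated, so the run does not cover them. The 10 genes were named in full, related genes by list, and the 3 nearest genes by distance. The genes and lists were chosen with earlier results of these data known. Tables were computed in Python 3.11.15 with pandas 2.3.3 and numpy 2.4.6, intervals with scipy 1.17.1, and plots with matplotlib 3.10.9.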

Additional observations from a re-analysis of the deposited data

How the results depend on the processing

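Each log2 ratio of the 10 genes kept its sign under every alternative that gave a value. Of 264 values recomputed, 226 moved by less than their limit, 38 moved further and 0 were counted as reversed. For the 10 genes these numbers were 99, 73, 26 and 0. Small list medians could change sign without being counted as reversed. The cystatin median was 0.10 with TPM and -0.087 with median-of-ratios scaling. That of the B cell markers was 0.22 with TPM and -0.20 by coverage. The medians of the stromal, dendritic and other acid phosphatase lists also changed sign under at least 1 alternative. The largest movements were those of Ctsk, at 8.51 by coverage per aligned Gb, and Ctsa, at -0.50 by coverage. Under a log2 limit of 2, 3 of the 10 genes were below the negative limit, against 520 of the 13449 genes compared. The same 2 genes, Acp5 and Ctsk, stayed above the positive limit, against 956 of the 13449. The median log2 ratio of all genes, 0.21, became 0.22 with 0.1 added to TPM, 0.14 with FPKM, 0.16 with coverage, 0.022 with median-of-ratios scaling over 11854 genes and 0.089 when the mitochondrial genes and the 20 highest genes were dropped from the total, among them Acp5, Ctsb, Ctsd, Ctsk and Ctss. Of all genes called, 61.6% were higher in MR, against 52.7% and 55.4% under the last 2 of these settings. Genes above the limit numbered 2858, and 1599 with at least 10 TPM or 956 at a limit of 2. Genes below numbered 1781, and 981 or 520 by the same settings. The osteoclast marker median was 8.97 with 0.1 added (7.67 with 1), because 4 genes had no locus in M. The neutrophil marker median was -0.87 with median-of-ratios scaling (-0.68 with TPM). The share of Ctsk among the cathepsins by coverage, an alternative chosen after seeing the data, was 0.092% in M and 55.4% in MR. No library could be left out, since each condition had 1. No paired analysis was possible because each condition had 1 library and the result came from no test.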
